A study of Mus musculus with 13 samples.

Results

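The genes described here encode the signalling part of the T cell antigen receptor: the CD3 chains (*Cd3d*, *Cd3e*, *Cd3g*), the zeta chain (*Cd247*), the kinases *Lck* and *Zap70*, the adaptor *Lat* and the surface proteins *Cd28*, *Cd5* and *Thy1*. The 10 genes were chosen by name and role, with earlier results of these data known. They were placed by body and midpoint among 22329 protein-coding genes that lie on called sequence of the mm9 genome. The question was whether each gene lay in a pericentromere-associated domain (PAD), a stretch of chromosome arm that contacts the clusters of pericentromeric satellite DNA called chromocenters, or outside one (non-PAD), in each cell type. Satellite 4C (sat4C) captures ligations between satellite repeats and the fragments near them, and the 399232 fragment ends of the deposited table carry 1 consensus call per cell type.

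Thymus tissue of adult male C57BL/6 mice was compared with IB10 embryonic stem cells (ESCs, 129/ola), with neural precursor cells (NPCs) derived from these ESCs and with astrocytes (ACs) derived from these NPCs. The thymus had 3 replicates with 6 sets of reads, ESCs had 3 replicates, and NPCs and ACs had 2 each. The thymus is a tissue of mixed cells, so that T cell precursors and the other cells of the organ share its call. The thymus was read on Illumina GAII and HiSeq instruments and the cultured cells on the HiSeq alone. Mouse strain, instrument, tissue or culture, and cell type cannot be told apart between the thymus and the cultured cells. No deleted gene is named for any group, and no treatment other than the derivation of NPCs and ACs in culture. The table analysed holds neither reads nor separate calls of the replicates, which leaves the depth of each call unknown, allows no error to be given and leaves every difference untested. RNA was not analysed here either, so that neither the labelled cell types nor the expression of these genes was checked.

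The T cell receptor recognizes peptide on a major histocompatibility complex but has no signalling tail of its own, and it relies on the CD3 chains and the zeta chain, whose cytoplasmic parts carry immunoreceptor tyrosine-based activation motifs. Lck, a Src family kinase held by the coreceptors CD4 and CD8, phosphorylates these motifs, Zap70 binds the phosphorylated motifs and then phosphorylates Lat, and Lat gathers the enzymes and adaptors that carry the signal on. Cd28 is the main costimulatory receptor, Cd5 dampens receptor signalling, and Thy1 is a small glycolipid-anchored protein of the thymocyte surface. Thymocytes are selected through this receptor in the thymus, whereas pluripotent, neural and astrocytic cells have no such receptor, Thy1 being the member that is also known from neurons.

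A fragment end runs from an MfeI site to the neighboring NlaIII site, and 97.8% of the deposited intervals began at either site of the NCBIM37 sequence (mm9). The pairs of ends printed below carry the calls on which the 3 closest borders rest, with a border meaning the middle between neighboring ends of different calls. They are given on the plus strand, 5′ to 3′, from the reference, with both restriction sites in capitals. The ends of *Cd247* lie in intron 1 of its 8 exons at chr1:167759649-167759863 (non-PAD in ESCs) and chr1:167762934-167763000 (PAD in ESCs).
Cd247, left of the ESC border: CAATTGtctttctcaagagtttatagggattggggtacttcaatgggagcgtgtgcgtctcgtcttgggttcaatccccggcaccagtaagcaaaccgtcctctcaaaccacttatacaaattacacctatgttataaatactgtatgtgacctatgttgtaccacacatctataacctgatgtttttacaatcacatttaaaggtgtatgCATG
Cd247, right of the ESC border: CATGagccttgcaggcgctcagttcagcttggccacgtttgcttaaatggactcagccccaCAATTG
The ends next to *Cd5* lie in an intron of *A430093F15Rik* at chr19:10830255-10830330 (PAD in ESCs) and chr19:10830325-10830388 (non-PAD in ESCs), and they are the opposite sides of a single MfeI site.
Cd5, left of the ESC border: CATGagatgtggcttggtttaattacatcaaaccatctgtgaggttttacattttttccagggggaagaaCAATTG
Cd5, right of the ESC border: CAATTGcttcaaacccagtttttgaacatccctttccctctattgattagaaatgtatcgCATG
The ends next to *Thy1* are intergenic, at chr9:43840347-43840414 (PAD in NPCs) and chr9:43845767-43845950 (non-PAD in NPCs).
Thy1, left of the NPC border: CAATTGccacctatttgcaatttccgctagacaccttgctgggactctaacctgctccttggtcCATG
Thy1, right of the NPC border: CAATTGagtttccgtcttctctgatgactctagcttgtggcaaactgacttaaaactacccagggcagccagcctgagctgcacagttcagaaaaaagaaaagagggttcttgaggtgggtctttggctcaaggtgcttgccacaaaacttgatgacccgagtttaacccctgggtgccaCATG
*Cd28*, the gene that was PAD in every column, is shown by the ends next to its midpoint, both in intron 3 of 4 exons, at chr1:60794765-60794814 and chr1:60802027-60802070.
Cd28, left of the midpoint: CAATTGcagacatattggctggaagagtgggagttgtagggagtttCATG
Cd28, right of the midpoint: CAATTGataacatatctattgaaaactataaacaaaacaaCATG
*Cd3d* and *Cd3e* contain no fragment end, and their calls rest on ends outside them, of which the one to the right, intergenic at chr9:44818193-44818326, was non-PAD in all columns.
Cd3d and Cd3e, next end to the right: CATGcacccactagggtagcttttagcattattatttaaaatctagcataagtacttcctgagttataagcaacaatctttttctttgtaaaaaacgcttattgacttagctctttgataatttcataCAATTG

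In the thymus, 9 of the 10 genes lay outside PADs and *Cd28* lay in one, beside 26.1% of all protein-coding genes in PADs. The AC calls were the same for every member, with *Cd28* as the 1 gene in a PAD beside 34.9% of all genes. In ESCs 3 members lay in PADs, *Lat*, *Cd5* and *Cd28*, beside 46.5% of all genes. In NPCs 5 did, with *Cd247* and *Zap70* added to these, beside 68.5% of all genes. With *Cd3d*, *Cd3e*, *Cd3g* and *Thy1*, which share a domain in every column, counted as 1 place, 5 of 7 places (71.4%) lay in NPC PADs, 3 of 7 (42.9%) in ESC PADs and 1 of 7 (14.3%) in PADs of the thymus and of ACs. The share of all genes differed between columns as well: PADs covered 48.4% of the genome in the thymus, 52.5% in ESCs, 68.0% in NPCs and 50.5% in ACs, and how far a member's NPC call follows this breadth was not tested.

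**Figure D1:**
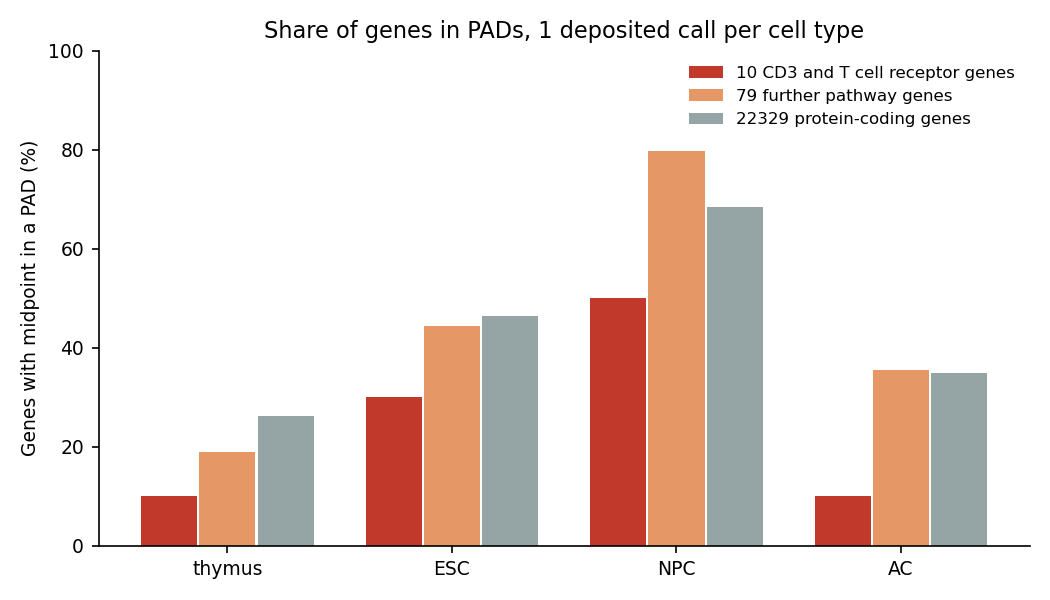
Percent of genes whose midpoint lay in a PAD (y axis, %) in each cell type (x axis), for the 10 CD3 and T cell receptor genes, for 79 further genes of the pathway and for all 22329 protein-coding genes. The 10 genes had 1, 3, 5 and 1 members in PADs in thymus, ESCs, NPCs and ACs, a lower share than all genes in each column, except that the NPC share is higher (71.4% against 68.5%) when *Cd3d*, *Cd3e*, *Cd3g* and *Thy1* are counted as 1 place. Each bar is 1 deposited call and has no error bar.

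The members followed 4 patterns. *Cd3d*, *Cd3e*, *Cd3g*, *Lck* and *Thy1* were non-PAD in all 4 columns, 5 of 10 members beside 20.1% of all genes, but 4 of these 5 lie in a single domain of Chromosome 9 and share their calls for that reason. *Cd247* and *Zap70* were PAD in NPCs alone, a pattern of 23.9% of all genes. *Lat* and *Cd5* were PAD in ESCs and NPCs and non-PAD in ACs and thymus, as 12.2% of all genes were. *Cd28* was PAD in all 4 columns, as 14.8% of all genes were. No member was PAD in the thymus and non-PAD in ESCs (6.06% of all genes), and 2 members, *Lat* and *Cd5*, were PAD in ESCs and non-PAD in the thymus (26.5%).

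Along the derivation from ESCs to NPCs to ACs, 2 members, *Cd247* and *Zap70*, were non-PAD in ESCs and PAD in NPCs beside 29.0% of all genes, and 0 were PAD in ESCs and non-PAD in NPCs beside 7.11%. From NPCs to ACs, 4 members, *Cd247*, *Zap70*, *Lat* and *Cd5*, were PAD before and non-PAD after, beside 38.4% of all genes, and 0 took the opposite course, beside 4.89%. Between ACs and thymus 0 members differed in either direction, where 15.5% of all genes were PAD in ACs and non-PAD in the thymus and 6.66% the reverse. NPCs and ACs each enter more than 1 of these comparisons, so that these counts are not independent of each other.

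**Figure D2:**
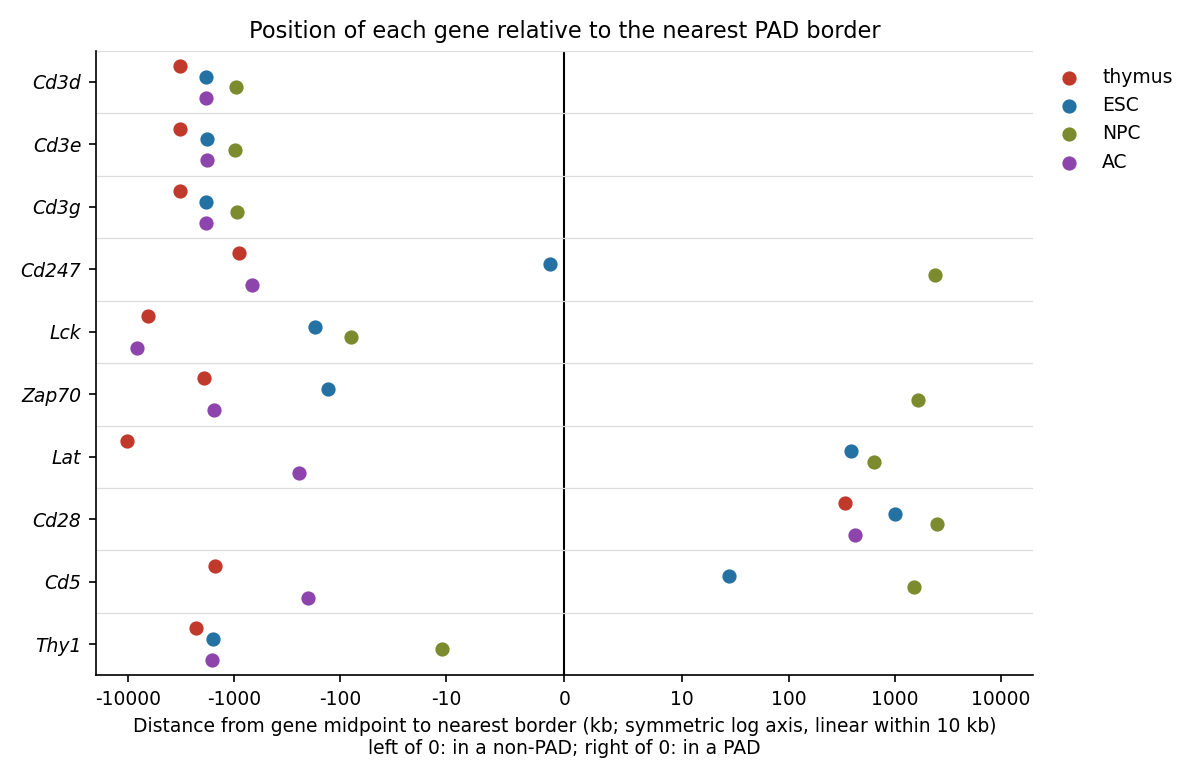
Distance from each gene's midpoint to the nearest PAD border (x axis, kb, symmetric log scale), with non-PAD positions left of 0 and PAD positions right of 0, and 1 point per cell type. The ESC point of *Cd247* lies 1.24 kb from a border and the NPC point of *Thy1* 11.0 kb, whereas all 4 points of *Cd28* lie on the PAD side, 339.0 kb or more from a border.

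The CD3 chain genes lie side by side on Chromosome 9, *Cd3g* at 44777655 to 44788514 on the minus strand, *Cd3d* at 44789876 to 44795135 on the plus strand and *Cd3e* at 44806826 to 44817673 on the minus strand. Each encodes a chain that pairs with another in the receptor complex, epsilon with gamma or delta. Their midpoints fell within 29.2 kb, and 1 non-PAD held all of them in every column. This non-PAD measured 9.42 Mb in the thymus (41584624 to 51005873), 4.33 Mb in ESCs (42294561 to 46621059), 2.45 Mb in NPCs (43843057 to 46292285) and 4.36 Mb in ACs (42253697 to 46609569). The thymus domain was thus the widest of the 4 and the NPC domain the narrowest. The non-PADs of all genes had the same order, with median sizes of 5.5 Mb in the thymus, 3.87 Mb in ACs, 2.70 Mb in ESCs and 1.96 Mb in NPCs. The ESC and AC domains differed by 40.9 kb at their left border, on the centromere side, and by 11.5 kb at their right border. The stretch that was non-PAD in all 4 columns is the NPC domain itself and held 68 protein-coding genes.

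Within that domain the CD3 genes were far from PADs in every column. The distance from *Cd3e*, whose chain is part of every receptor complex, to the nearest border was 3.23 Mb in the thymus, 1.81 Mb in ESCs, 0.969 Mb in NPCs and 1.80 Mb in ACs. For *Cd3d* and *Cd3g* these distances differed from those of *Cd3e* by no more than their spacing. All 27 ends within 100 kb of the *Cd3e* midpoint, all 29 of *Cd3d* and all 31 of *Cd3g* were non-PAD in each column, as follows from these distances. *Cd3g* contains 4 fragment ends and *Cd3d* and *Cd3e* contain none, but the midpoints of all 3 genes lie in the same interval of 37.7 kb without an end. The calls of these 3 genes are therefore 1 observation repeated, not 3.

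*Thy1* lies 929.0 kb from *Cd3g* in the same non-PAD, on Chromosome 9 at 43851467 to 43856662 (plus strand). Its distance to the nearest border, on the centromere side in each column, was 2.27 Mb in the thymus, 1.56 Mb in ESCs, 1.60 Mb in ACs and 11.0 kb in NPCs. The NPC PAD thus ended just before the gene: 13 of the 24 ends within 100 kb of its midpoint were PAD in NPCs, and 0 were in the other columns. The border lies between the ends printed above, at -13.7 and -8.30 kb from the midpoint. *Thy1* itself contains no fragment end, and the next end to its right was 38.6 kb away and non-PAD in NPCs. When the majority of ends within 50 kb decided the call, *Thy1* became PAD in NPCs. Its left neighbor *Pvrl1*, a nectin adhesion gene 270.0 kb away, was PAD in NPCs and non-PAD elsewhere, and its right neighbor *Usp2*, a ubiquitin protease gene 35.3 kb away, shared all calls of *Thy1*. Between *Thy1* and *Cd3g* the table has an interval of 0.132 Mb without ends, with 4 genes in it. Where domains ended at intervals over 100 kb, *Thy1* and the CD3 genes fell in separate domains.

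*Cd247*, the zeta chain gene, lies on Chromosome 1 at 167718812 to 167801284 (plus strand, 82.5 kb) and was crossed by a border in ESCs, where 3.70% of all protein-coding genes were crossed. Of its 12 fragment ends, 7 were non-PAD and 5 were PAD in ESCs, all 12 were PAD in NPCs and all 12 were non-PAD in ACs and in the thymus. The ESC border lay in intron 1, 42.5 kb from the transcription start and 1.24 kb right of the midpoint, so that the first exon was non-PAD and 48.5% of the gene body was PAD. Counted by any overlap with a PAD, *Cd247* was PAD in ESCs too, which left *Zap70* as the 1 member that was non-PAD in ESCs and PAD in NPCs. The ends that set this border are 3.29 kb apart. Within 100 kb the 10 ends right of the border were PAD and the 16 left of it non-PAD, as the lengths of both domains require. The non-PAD to the left measured 1.02 Mb in ESCs and the PAD to the right 1.76 Mb.

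The domains of *Cd247* in the other columns were wider. It lay in a PAD of 6.98 Mb with 68 protein-coding genes in NPCs, in a non-PAD of 1.70 Mb in ACs and in a non-PAD of 3.55 Mb in the thymus. The AC non-PAD began at the same pair of ends as the ESC non-PAD, with 0.0 kb between both left borders, and reached 675.4 kb farther to the right, past the whole gene. *Creg1*, the left neighbor of *Cd247*, had its calls in all 4 columns. *Pou2f1*, the right neighbor, which encodes the octamer-binding factor Oct1, differed by being PAD in ESCs.

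**Figure D3:**
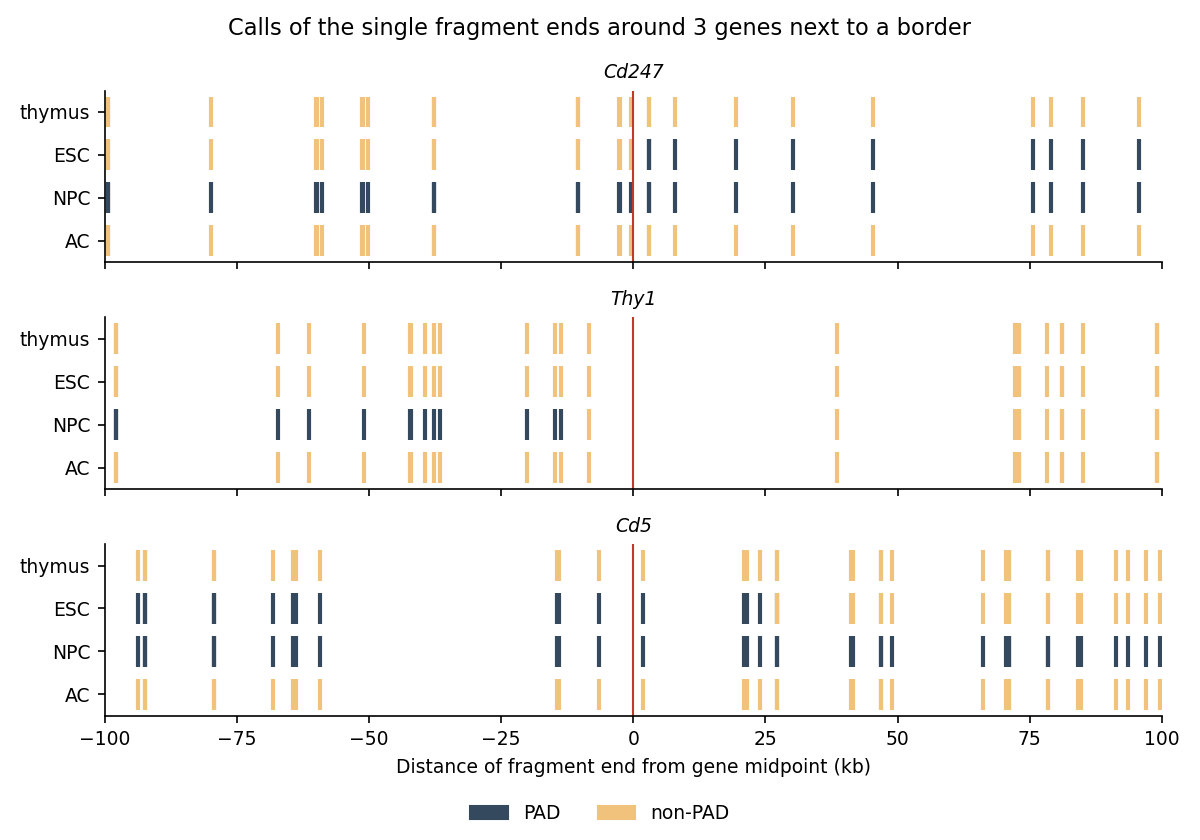
Calls of single fragment ends (vertical ticks, PAD dark and non-PAD light) by distance from the gene midpoint (x axis, kb) around *Cd247*, *Thy1* and *Cd5*, with 1 row per cell type and the midpoint marked by a red line. In ESCs the calls change 1.24 kb right of the *Cd247* midpoint and 27.2 kb right of the *Cd5* midpoint, in NPCs 11.0 kb left of the *Thy1* midpoint, and no call changes in the thymus or AC rows.

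*Lck* lies on Chromosome 4 at 129225593 to 129250885 (minus strand). It was non-PAD in all columns, in domains of 20.6 Mb in the thymus (351 protein-coding genes), 23.8 Mb in ACs (391 genes), 0.987 Mb in ESCs (29 genes) and 0.926 Mb in NPCs (31 genes). The thymus and AC domains were thus far wider than those of ESCs and NPCs. Over all genes in non-PADs the median sizes, given above for the CD3 genes, were also larger in the thymus and ACs. Its nearest border was 6.40 Mb away in the thymus, 8.14 Mb in ACs, 174.0 kb in ESCs and 79.4 kb in NPCs. The NPC border belongs to a PAD of fewer than 5 ends, and the distance was 798.9 kb when such short runs took the call of their surroundings. A stretch of 253.4 kb with 14 genes around *Lck* was non-PAD in all 4 columns, and it measured 972.9 kb with 29 genes when the short runs were absorbed. *Hdac1*, a histone deacetylase gene 31.6 kb to the left, and *Fam167b*, 16.7 kb to the right, had the same calls.

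*Zap70* lies on Chromosome 1 at 36818695 to 36839663 (plus strand), 130.9 Mb from *Cd247*, and had the same calls: PAD in NPCs and non-PAD elsewhere. The non-PAD measured 5.63 Mb in the thymus, 5.25 Mb in ACs and 0.906 Mb in ESCs, and the NPC PAD 5.19 Mb. All 28 ends within 100 kb were PAD in NPCs and non-PAD in the other columns, since no border lay within 100 kb in any of them. The nearest border was 128.9 kb away in ESCs, 1.54 Mb in ACs, 1.65 Mb in NPCs and 1.93 Mb in the thymus. The thymus and AC non-PADs began 9.57 kb apart on the left and ended 387.9 kb apart on the right. The right border in the thymus belongs to a PAD of fewer than 5 ends. With such short runs absorbed, the thymus distance was 2088 kb and the thymus non-PAD measured 5790 kb. *Actr1b* and *Tmem131*, its neighbors, had its calls in all 4 columns.

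*Lat*, the adaptor gene, lies on Chromosome 7 at 133507346 to 133513057 (minus strand) and contains no fragment end. It was PAD in ESCs (0.955 Mb, 38 protein-coding genes) and in NPCs (1.34 Mb, 50 genes) and non-PAD in ACs (1.21 Mb, 23 genes) and in the thymus (27.6 Mb, 318 genes). The ESC and NPC PADs largely coincided, with borders 244.2 kb apart on the left and 135.9 kb on the right. All 22 ends within 100 kb had the gene's call in each column, since no border lay that near. The nearest border was 387.8 kb away in ESCs, 632.0 kb in NPCs, 244.4 kb in ACs and 10.1 Mb in the thymus. The region is gene-dense, with 36 protein-coding genes within 500 kb on each side. The ESC PAD around *Lat* held 39.8 genes per Mb. *Gm10155*, the left neighbor at 67.0 kb, *Spns1*, the right neighbor at 7.07 kb, and *Nfatc2ip*, 23.1 kb away, were among the genes with its calls and domains in all 4 columns.

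*Cd28* lies on Chromosome 1 at 60773644 to 60820007 (plus strand) in the annotation's longest transcript, and it was the member that was PAD in every column. The PAD measured 0.977 Mb in the thymus (60159285 to 61135820), 2.07 Mb in ESCs (59728136 to 61801143), 5.08 Mb in NPCs (58319071 to 63403442) and 1.02 Mb in ACs (60373109 to 61390991). All 9 ends of the gene and all 18 within 100 kb were PAD in each column, since no border lay that near. The nearest border was 339.0 kb away in the thymus, 423.7 kb in ACs, 1.00 Mb in ESCs and 2.48 Mb in NPCs. A core of 0.763 Mb from 60373109 to 61135820 was PAD in all 4 columns and held 6 protein-coding genes. Among them were *Ctla4*, an inhibitory receptor of T cells that binds the ligands of Cd28, at 159.9 kb, the costimulatory receptor gene *Icos* at 249.1 kb and *Raph1* at 211.4 kb on the other side. The surroundings of *Cd28* had 7 protein-coding genes within 500 kb on each side and a GC content of 40.5%, whereas those of the other members had 13 to 36 genes and 43.3% to 48.7% GC.

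*Cd5* lies on Chromosome 19 at 10792633 to 10813464 (minus strand). It was PAD in ESCs (3.44 Mb) and NPCs (5.69 Mb) and non-PAD in ACs (0.729 Mb) and in the thymus (3.84 Mb). In ESCs the PAD ended 27.2 kb right of the midpoint, and 17 of the 36 ends within 100 kb were PAD, whereas all 36 were PAD in NPCs and 0 were in ACs and thymus. This border separated *Cd5* from *Cd6*, a related scavenger receptor gene 81.1 kb away, which was non-PAD in ESCs and had the calls of *Cd5* in the other columns. In NPCs, ACs and thymus both genes lay in the same domain. The ESC non-PAD of *Cd6* was short and ended 0.102 Mb right of the *Cd5* midpoint, where PAD calls resumed. Within 3 Mb of *Cd5*, 95.8% of the sequence was PAD in ESCs and 87.85% in ACs. The nearest border was 1.53 Mb away in NPCs, 200.7 kb in ACs and 1.51 Mb in the thymus. Both fragment ends inside *Cd5* were PAD in ESCs. *Vps37c*, the left neighbor at 26.9 kb, had the calls of *Cd5* in all 4 columns, whereas *A430093F15Rik*, the right neighbor at 34.9 kb, was non-PAD in ESCs.

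**Figure D4:**
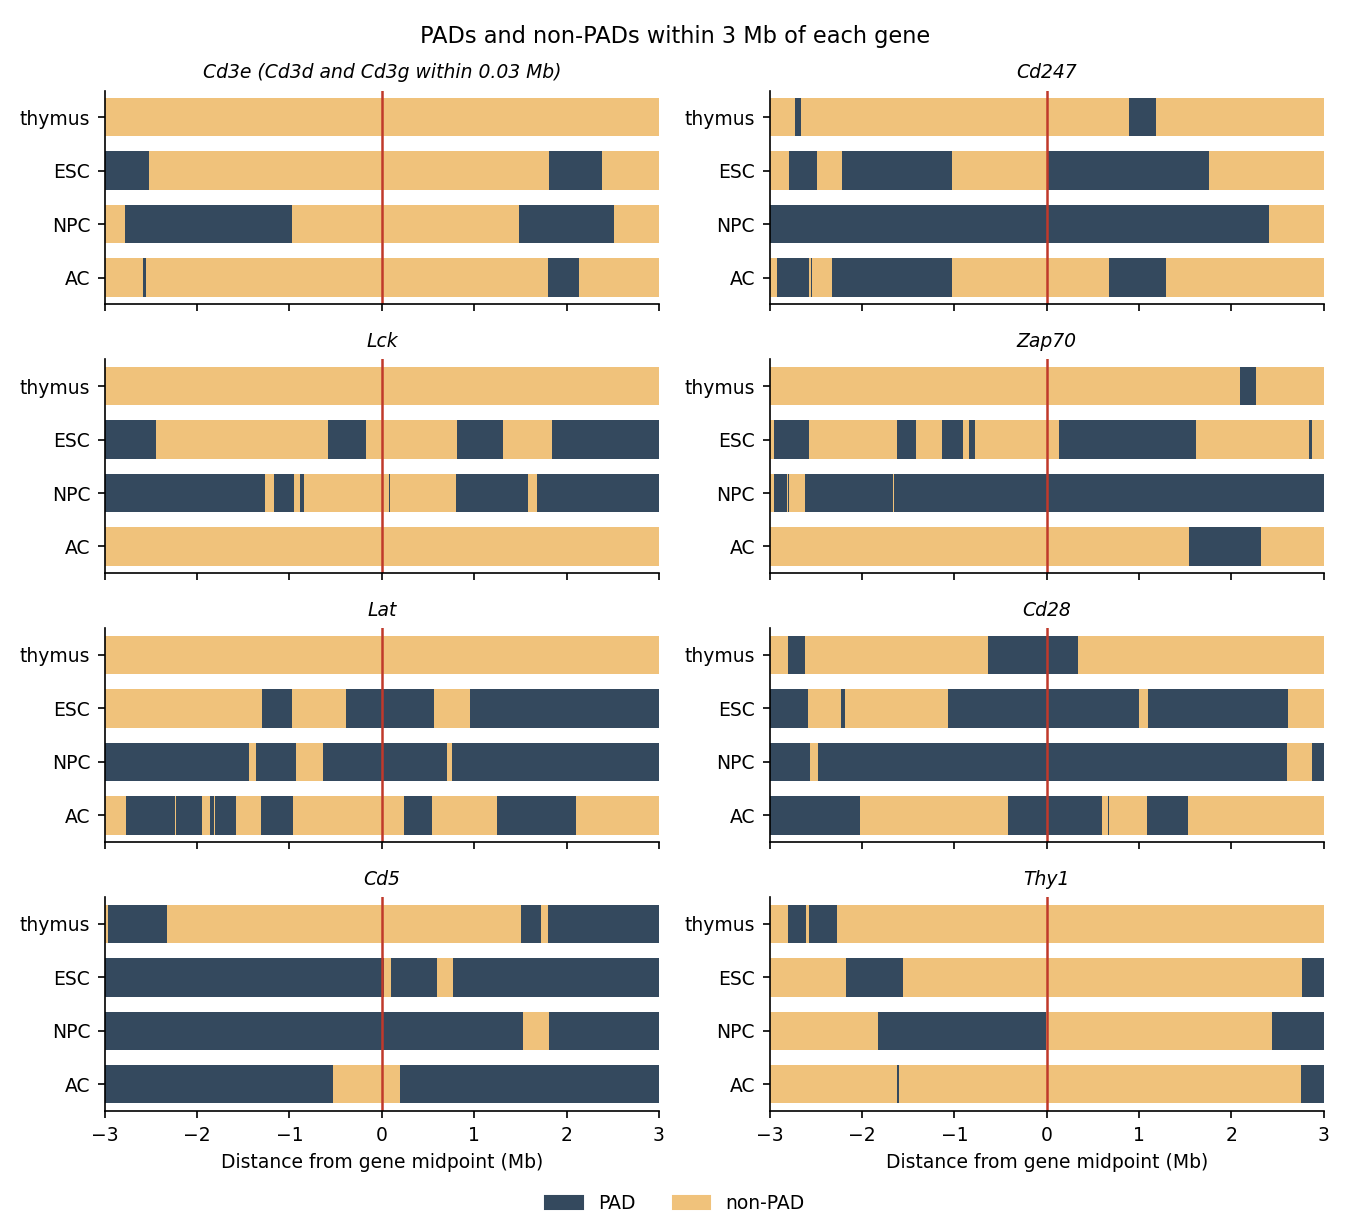
PADs (dark) and non-PADs (light) within 3 Mb of the midpoint of 8 genes (x axis, Mb from the midpoint, left towards the centromere), with 1 row per cell type and the gene at the red line; *Cd3d* and *Cd3g* lie within 0.03 Mb of *Cd3e*. The thymus row has no PAD within 3 Mb of *Cd3e*, *Lck* and *Lat*, and the NPC row is PAD across 96.0% of the window of *Zap70*.

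Of the 7 members that were non-PAD in both thymus and ESCs, *Cd247*, *Lck* and *Zap70* lay farther from a border in the thymus than in ESCs under every setting tried. So did the CD3 genes and *Thy1* as reported, but where domains ended at gaps over 100 kb their distances, 396.2 to 425.4 kb, were the same in both columns. The share of all genes that lay farther from a border in the thymus was not computed. The median distance of all genes in non-PADs was also larger in the thymus (1.245 Mb) than in ESCs (0.488 Mb). Among the 9 members that were non-PAD in the thymus, the distance to the nearest border ranged from 0.889 Mb (*Cd247*) to 10.1 Mb (*Lat*), with a median of 3.20 Mb, whereas the median of all 16509 genes in thymus non-PADs was 1.245 Mb. In ACs the 9 non-PAD members had a median of 1.60 Mb (all genes 0.807 Mb), in ESCs the 7 had 1.56 Mb (0.488 Mb) and in NPCs the 5 had 0.940 Mb (0.387 Mb). With domains ended at gaps over 100 kb the thymus medians were 0.889 Mb for the members and 0.918 Mb for all genes, so that the members no longer lay deeper than all genes, and in ACs (0.406 and 0.610 Mb) and ESCs (0.396 and 0.414 Mb) they were below all genes too. In NPCs the medians were then 0.396 and 0.312 Mb. Since *Thy1* and the CD3 genes share a domain, these medians describe fewer independent places than genes. In all 4 columns the median is the value of *Cd3g* or *Thy1*. The members resembled all genes in length, with a median of 15.9 kb against 15.3 kb, and 4 of 10 had no fragment end in the body (37.5% of all genes). They lay in regions with a median of 27 protein-coding genes per Mb window, against 16 for all genes.

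The further genes of the pathway were read from a list of 79, all of which were placed. Of these, 15 (19.0%) lay in PADs in the thymus, 35 (44.3%) in ESCs, 63 (79.8%) in NPCs and 28 (35.4%) in ACs. PAD in the thymus were 7 of 18 receptor partners and coreceptors, 3 of 16 kinases and phosphatases next to the receptor, 4 of 17 adaptors and effectors and 1 of 28 genes of the downstream branches, the last being *Prkcq*, which encodes the protein kinase C of the T cell synapse. The list thus had the fewest genes in PADs in the thymus, as had all protein-coding genes (26.1% in the thymus, 46.5% in ESCs, 68.5% in NPCs and 34.9% in ACs). In the list, 26 genes (32.9%, beside 26.5% of all genes) were PAD in ESCs and non-PAD in the thymus, among them *Cd4*, *Lcp2* (the adaptor SLP-76) and *Ptpn22*, a phosphatase that acts on Lck. The reverse held for 6 genes (7.59%, beside 6.06% of all genes), *Ptprc* (the phosphatase CD45), *Slamf1*, *Txk*, *Tec*, *Cblb* and *Themis*. Of these, *Txk* and *Tec* had equal calls in all columns and lay in the same thymus PAD of 6196 kb on Chromosome 5. *Ctla4* and *Icos* likewise shared a PAD. The counts of the list and of its groups thus describe fewer independent places than genes. *Cd8a*, *Ctla4*, *Icos*, *Trat1* and *Fyb* were PAD in all 4 columns (6.33% of the list beside 14.8% of all genes), and 12 genes were in none (15.2% beside 20.1%). The thymus PAD of *Cd8a* measured only 78.7 kb, with a border 37.5 kb from the gene. *Cd8b1*, the gene of the other CD8 chain, was non-PAD in the thymus, 4.99 kb from a border.

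Some of these genes shared a domain with a member. *Cbl*, a ubiquitin ligase gene that acts on the receptor complex, lay 0.146 Mb from the nearest of the Chromosome 9 members and shared their non-PAD in all 4 columns. *Ctla4* and *Icos* shared the PAD of *Cd28* in all 4. *Mapk3*, which encodes the kinase ERK1, shared the domain of *Lat* in ESCs, NPCs and thymus, but was PAD in ACs where *Lat* was not. *Cd2bp2*, 0.827 Mb from *Lat*, shared its domain in the thymus only, and *Cd6* that of *Cd5* in NPCs, ACs and thymus.

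By the same calls in all 4 columns and a shared domain in at least 3 of them, the genes most like *Cd3e* were *Mpzl2*, *Ube4a* and *Mpzl3*, among 64 such genes besides the members of that domain. *Lck* had 33 such genes, *Cd5* 22, *Lat* 16, *Zap70* 15, *Cd247* 12 and *Cd28* 5. These genes were ranked by distance alone, over 4 columns. The nearest of them were *Ube4a*, *Mpzl2* and *Atp5l* for *Cd3d* and *Cd3g*, *Creg1*, *Rcsd1* and *Mpzl1* for *Cd247*, *Fam167b*, *Hdac1* and *Eif3i* for *Lck*, and *Actr1b*, *Cox5b* and *Tmem131* for *Zap70*. For *Thy1* they were *Usp2*, *Rnf26* and *Mfrp*, for *Cd5* *Vps37c*, *Pga5* and *Vwce*, and for *Cd28* *Ctla4*, *Raph1* and *Icos*.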

How the data were processed

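The authors assigned sat4C reads to fragment ends of mm9, the Y chromosome left out, with an aligner not given in the sources used here. They grouped the read numbers of the ends into 5 classes, fitted a hidden semi-Markov model of 2 states to each replicate and combined replicates by majority vote, with pooled reads for ties. The deposited values are words, PAD or nPAD, and not counts, so depth is unknown and no test was run. Here runs of ends with equal calls made up the domains, and protein-coding genes of GENCODE vM1 (51 of 22380 lay outside the called sequence) were placed by midpoint, using the longest transcript of each. The tools were pandas 2.3.3, numpy 2.4.6, pysam 0.24.0 and matplotlib 3.10.9 under Python 3.11.15. Sequences are from NCBIM37. Both instrument runs of a thymus replicate were taken as 1 replicate, which was assumed from their labels.

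The members and the pathway list were chosen with earlier results of these data known. Named were every member, its nearest genes, pathway genes in a member's domain, those PAD in all columns or in the thymus and not in ESCs, and up to 3 genes with the most similar calls per member. *Cd4*, *Cd8b1*, *Lcp2*, *Ptpn22* and *Prkcq* were named after their values were seen. The status of 1 gene chosen by this rule is left out here. The pathway gene *Hras* was matched as *Hras1*. Placement and domain building were tested on simulated data, where only genes far from a border were scored. Genes as near a border as *Cd247*, *Thy1* and *Cd5* were thus not covered. Alternatives were placement by transcription start site, by any overlap, by most of the body, by the nearest end or by ends within 50 kb, runs under 5 ends absorbed, borders at outer ends, domains ended at gaps over 100 kb and, chosen after seeing the data, intervals as deposited, members of 1 shared domain counted once and the stretch around *Lck* with short runs absorbed.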

Additional observations from a re-analysis of the deposited data

How the results depend on the processing

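The counts of members and of pathway genes in PADs, and of members that differed between columns, were computed under 7 other placements each, and 111 of 112 of these values were within 1.5 times the reported one. The 16 values by the nearest end could not differ, because borders lie midway between ends. The limit of 1.5 times also let small counts change, such as 3 to 4 members in ESC PADs by any overlap. The exception was the count of members that were PAD in NPCs and non-PAD in ESCs, which was 1 instead of 2 when any overlap of the gene body with a PAD counted, since the ESC border in *Cd247* made that gene PAD. By the majority of ends within 50 kb, *Thy1* was PAD in NPCs and 6 members were, instead of 5. The distance to the nearest border moved by more than 1.5 times in 20 of 200 recomputed values and the domain size in 14 of 200, of which domains ended at gaps over 100 kb gave 15 and 13, most of them for *Thy1* and the CD3 genes: the thymus distance of *Cd3g* was 396.2 kb instead of 3.20 Mb, and the members' thymus median was 0.889 instead of 3.20 Mb (all genes 0.918 instead of 1.245 Mb, without 721 genes in gaps). No member changed its side of a border in the 200 distances. The 40 of them with domains ended at gaps could not show such a change, because the cut leaves the calls as they are. The placement by ends within 50 kb, which changed the NPC call of *Thy1*, was not among the 200. Leaving out a replicate could not be done, since each column is 1 consensus call. No paired analysis was possible because the columns carry no replicate numbers and no test was made. Calls of genes without a fragment end rest on ends up to 38.6 kb away.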
